A study of Mus musculus with 12 samples.

Results

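Conventional CD4 T cells (Tconv, sorted as CD4+CD25-) of NOD mice were compared with the same cells of B6.H2g7 mice. The comparison took the 6 Tconv arrays of a series of 12, chosen by their titles: 3 of NOD and 3 of B6.H2g7. The other 6 arrays held regulatory T cells (Treg, sorted as CD4+CD25+) of both strains, 3 each, and served as a second set of arrays for the strain difference. All cells came from spleens of mice aged 6 weeks, and each array took RNA pooled from 3 mice. The sort removed cells with CD8a, CD11b, CD69 or B220 on their surface. The pools of a group are independent, per the series text, so the spread between arrays includes that between pools of mice.

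NOD is an inbred strain that develops autoimmune diabetes through T cells that attack the insulin-producing cells of the pancreas. Its MHC haplotype, H2g7, carries the class II molecule I-Ag7 and is a main part of its genetic risk, together with many loci outside the MHC called Idd regions. B6.H2g7 mice are C57BL/6 mice congenic for that haplotype and do not develop the disease, so the comparison leaves mainly the genome outside the MHC as a difference between strains. The labels name no treatment. The sources used here do not give the animals' sex or housing, and such differences cannot be told apart from strain.

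Median intensities of the Tconv arrays lay between 83.99 and 88.57, and arrays correlated with r between 0.9877 and 0.9962 within a strain and between 0.9728 and 0.9879 across strains, over probe sets. Precision is limited by having 3 arrays per group. The signal of the actin control transcript fell off from its 3' to its 5' end by 3.98 ± 0.40 (SD, n = 3) on the log2 scale in B6.H2g7 and 3.67 ± 0.65 in NOD, and ran from 2.97 to 4.43 over single arrays. The weights that limma estimates from how far an array lies from its group ran from 0.352 (B6.H2g7 replicate 3) to 2.34 (B6.H2g7 replicate 2). Cd3e, a chain of the T cell receptor complex, had log2 intensities from 11.92 to 12.65 on the 6 arrays, and Cd4 from 9.90 to 10.22. Foxp3, the factor that defines Treg cells, lay between 5.57 and 6.24, against 10.67 to 11.26 on the 6 Treg arrays. Itgam, which encodes CD11b, was at 4.52 to 4.82, a dim level. Cd8a, whose protein the sort also removed, was at 7.23 to 7.82 at its brightest probe set, above the dim level, and its strain difference was not called (-0.19, adjusted p = 0.696). Dim means here a group mean under 5.28 on the log2 scale, the 25th percentile of all probe sets, where the size of a difference is uncertain and no fold is given.

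NOD and B6.H2g7 Tconv cells differed in 554 of 18193 genes at an adjusted p under 0.05 (limma with Benjamini-Hochberg adjustment), which is 3.05% of genes. Of these, 291 were higher in NOD (1.6%) and 263 lower (1.45%). A gene is represented by its brightest probe set, and a call rests on that probe set. Most differences were small: the median size of a called difference was 0.82 on the log2 scale, 193 genes (1.06%) differed by at least 2-fold, 87 of them higher (0.478%) and 106 lower (0.583%), and 56 by at least 4-fold. The median over all genes was 0.03. All 554 called genes had arrays that did not overlap between strains, as had 3220 genes in all (17.7%). A bulk array cannot tell fewer cells that express a gene from less RNA per cell.

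The largest group of neighbouring genes that differed was the Trim12 and Trim30 cluster of chromosome 7. TRIM proteins of this cluster are E3 ubiquitin ligase relatives of the retroviral restriction factor TRIM5, and several are induced by interferon. Trim12c had log2 intensities of 9.16, 9.20 and 8.71 in B6.H2g7 and 3.68, 3.42 and 3.61 in NOD, where it was dim. The difference was -5.45 ± 0.17 (SE, n = 3 per group, adjusted p = 4.55e-09). Trim12a stood at 8.62, 8.31 and 7.98 in B6.H2g7 and at a dim 3.48, 3.64 and 3.29 in NOD (-4.83 ± 0.21, adjusted p = 4.33e-08). At these probe sets both genes were well above the dim level in every B6.H2g7 array and below it in every NOD array. A second probe set of each was dim in both strains and was not called, with -0.24 (adjusted p = 0.429) for Trim12c and -0.14 (adjusted p = 0.846) for Trim12a.

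Trim30a, an interferon-induced inhibitor of Toll-like receptor signalling to NF-kB, was at 12.30, 12.19 and 12.05 in B6.H2g7 and 9.11, 9.08 and 9.18 in NOD. That is 8.31-fold lower (-3.06 ± 0.11, adjusted p = 1.51e-08), with groups far apart. Its other probe set showed a difference of -0.11 (adjusted p = 0.91), at 9.31 in B6.H2g7 and 9.20 in NOD. Trim5, between Trim34a and Trim12a in the gene order, moved the other way: 8.49, 8.76 and 8.52 in B6.H2g7 against 9.72, 9.62 and 9.76 in NOD, or 2.16-fold higher (1.11 ± 0.09, adjusted p = 1.43e-05). Trim34a was 1.56-fold lower (-0.64, adjusted p = 0.00718), a call lost without the 4 arrays numbered replicate 1 (-0.57, adjusted p = 0.101). These 5 genes, in the order Trim34a, Trim5, Trim12a, Trim12c and Trim30a, formed the longest run of called neighbours in the genome. On either side the next measured genes, Trim6 (0.04, adjusted p = 0.976) and Trim30d (-0.43, adjusted p = 0.132), were not called. Of the 9 measured genes of the list for the cluster, 1 was higher and 5 lower (66.7% called, against 3.05% of all genes). The last of the lower ones was Trim68, elsewhere on chromosome 7 (-0.79, adjusted p = 0.0168). Trim68 lost its call without B6.H2g7 replicate 2 or 3 or NOD replicate 2 or 3 (adjusted p up to 0.0891). Some genes of the cluster are close copies of each other, and how probes divide their signal among the copies was not tested.

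**Figure D1:**
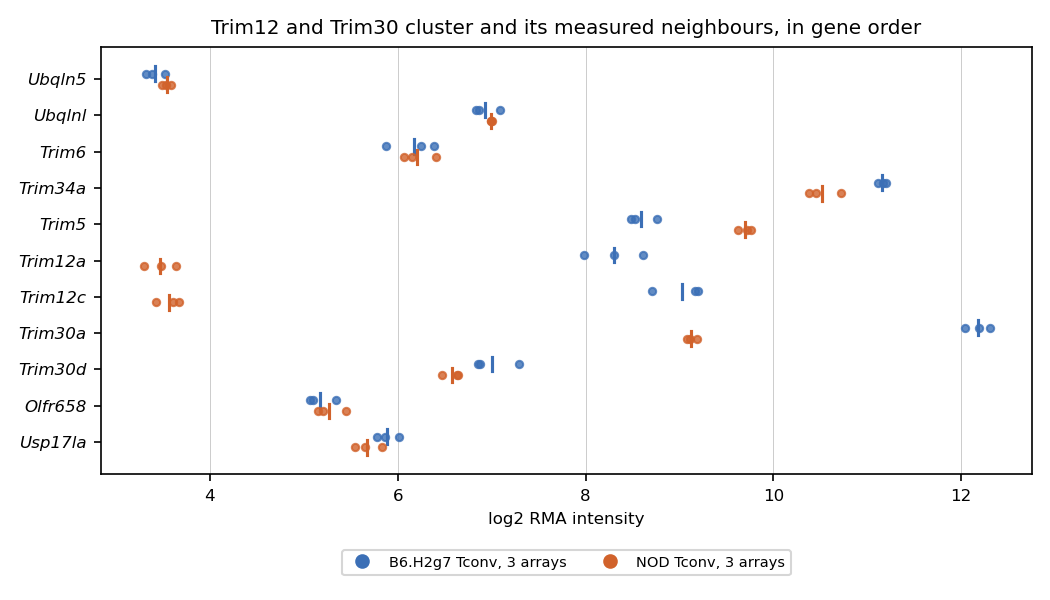
Log2 RMA intensity (x axis) of the genes of the Trim12 and Trim30 cluster and 3 measured genes on either side, in gene order from top to bottom (y axis). Each point is 1 Tconv array, blue for B6.H2g7 and orange for NOD, and the bar is the group mean; Trim12a and Trim12c stand at 3.29 to 3.68 in NOD against 7.98 to 9.20 in B6.H2g7, while Trim5 is higher in NOD.

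The start regions of these genes are shown because neighbours of opposite direction share sequence there. Each window runs from 250 bases before to 50 bases after a gene's start in the C57BL/6J reference (RefSeq, GRCm38.p6), on the gene's own strand, and holds no NOD sequence. Capitals mark matches to GAAANNGAAA, the core of the interferon-stimulated response element, on either strand. The windows are at chr7:104244207-104244506 (+) for Trim34a, chr7:104288057-104288356 (-) for Trim5, chr7:104315446-104315745 (-) for Trim12a, chr7:104353300-104353599 (-) for Trim12c and chr7:104465144-104465443 (-) for the upstream start of Trim30a.
Trim34a: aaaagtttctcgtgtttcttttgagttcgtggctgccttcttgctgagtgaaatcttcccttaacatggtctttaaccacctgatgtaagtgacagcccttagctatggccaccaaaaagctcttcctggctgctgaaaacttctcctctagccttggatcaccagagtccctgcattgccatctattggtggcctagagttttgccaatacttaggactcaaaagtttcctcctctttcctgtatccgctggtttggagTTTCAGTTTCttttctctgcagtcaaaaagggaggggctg
Trim5: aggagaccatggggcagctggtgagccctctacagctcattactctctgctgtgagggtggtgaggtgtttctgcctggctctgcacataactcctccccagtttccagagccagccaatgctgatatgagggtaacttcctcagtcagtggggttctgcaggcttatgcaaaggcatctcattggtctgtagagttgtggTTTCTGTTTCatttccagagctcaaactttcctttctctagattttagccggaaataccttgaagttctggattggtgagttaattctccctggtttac
Trim12a: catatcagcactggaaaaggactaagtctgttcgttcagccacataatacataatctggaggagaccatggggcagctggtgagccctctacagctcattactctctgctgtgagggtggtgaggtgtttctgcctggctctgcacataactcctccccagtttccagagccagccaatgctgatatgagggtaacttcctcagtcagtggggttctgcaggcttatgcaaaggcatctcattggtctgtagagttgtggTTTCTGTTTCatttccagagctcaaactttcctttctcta
Trim12c: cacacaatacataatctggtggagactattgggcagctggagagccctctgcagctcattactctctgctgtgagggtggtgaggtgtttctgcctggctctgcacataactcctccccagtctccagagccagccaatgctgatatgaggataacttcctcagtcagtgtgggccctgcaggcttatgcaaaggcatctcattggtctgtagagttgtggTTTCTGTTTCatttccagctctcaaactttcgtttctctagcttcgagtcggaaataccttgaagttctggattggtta
Trim30a: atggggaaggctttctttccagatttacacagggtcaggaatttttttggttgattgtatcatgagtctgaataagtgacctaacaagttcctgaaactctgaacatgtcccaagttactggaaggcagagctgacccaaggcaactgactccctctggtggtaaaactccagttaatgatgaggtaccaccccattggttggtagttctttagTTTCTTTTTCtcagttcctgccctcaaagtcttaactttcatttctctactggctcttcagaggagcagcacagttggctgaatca
The windows of Trim5 and Trim12a share an identical stretch of 241 bases, and that of Trim12c shares 71 bases with each of them. Trim5 was higher and Trim12a lower in NOD. The motif was present in the windows of all 5 genes, against 1131 of 32851 windows in the table (3.44%). Among genes with a window, it was found in 17 of 207 called lower in NOD (8.21%), 10 of 236 called higher (4.24%) and 524 of 14452 measured genes (3.63%). The 17 include Trim34a, Trim12a, Trim12c, Trim30a and Ifi213, genes chosen for their values. The 5 windows are not independent, since Trim5, Trim12a and Trim12c share sequence and carry the same match. No test was made of these shares. A match describes these letters and is not evidence of a bound site.

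Genes of the Ifi200 family on chromosome 1, which encode interferon-inducible proteins that bind DNA, also differed in both directions. Of 7 measured, 2 were higher and 2 lower (57.1% called, against 3.05% of all genes). Ifi213 was at 11.62, 11.30 and 11.55 in B6.H2g7 and 7.37, 7.60 and 7.81 in NOD, 14.9-fold lower (-3.90 ± 0.16, adjusted p = 2.47e-08), and its dimmer probe set was lower too (-2.65, adjusted p = 6.49e-07). Its neighbour Ifi209 was at 11.48, 11.62 and 11.79 in B6.H2g7 and 8.92, 9.11 and 9.20 in NOD, 5.89-fold lower (-2.56), with -0.56 (adjusted p = 0.0479) at the other probe set. Both genes had non-overlapping arrays by a wide margin. Mndal was 1.59-fold higher (0.67, adjusted p = 0.00108), and Ifi204 was higher by 2.29 (adjusted p = 1.06e-04) from a dim B6.H2g7 level of 3.06 to 3.24. The windows of Ifi213 and Mndal held the motif, and that of Ifi209 did not.

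Other genes of the interferon response were mostly not called. Of 41 measured genes of that list, none was higher and 2 were lower (4.88%), against 3.05% of all genes. The list median was -0.18 on the log2 scale, and 15 of 41 members had a positive difference. Arrays did not overlap between strains in 14 of the 41, against 17.7% of all genes. The summed intensity of the list was 39586 to 45728 in B6.H2g7, with a median of 41696. In NOD it was 39190 to 51798 with a median of 39988, so the highest NOD array stood apart from the rest. Rsad2, the antiviral protein viperin, was at 10.04, 9.50 and 9.82 in B6.H2g7 and 8.08, 8.17 and 9.13 in NOD, 2.5-fold lower (-1.32, adjusted p = 0.0287). Its call was lost without B6.H2g7 replicate 1 or 3 or NOD replicate 1 or 2 (adjusted p up to 0.136). Oas2, an antiviral oligoadenylate synthetase, was 1.37-fold lower (-0.46, adjusted p = 0.0454), and lost its call without any of 5 arrays, all but NOD replicate 3 (adjusted p up to 0.212). Irf7, Ifit1 and Mx1, usual reporters of interferon signalling, had differences of -0.27, -1.08 and -0.16 and were not called (adjusted p = 0.7, 0.2 and 0.88).

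Outside these families, the largest decreases were in Slc15a2, Rab6b and Cd200r4. Slc15a2, a proton-coupled peptide transporter, was at 11.05, 11.42 and 11.21 in B6.H2g7 and 5.96, 5.89 and 6.01 in NOD, 38.7-fold lower (-5.27 ± 0.21, adjusted p = 2.47e-08). Its 2 dimmer probe sets differed by 0.02 and -0.05 (adjusted p = 0.982 and 0.94). Rab6b, a small GTPase of Golgi transport, was at 9.72, 9.87 and 9.73 against a dim 5.24, 5.30 and 5.22 (-4.52, adjusted p = 1.29e-09), with -3.35 at a second probe set and no call at 2 others. Cd200r4, an activating receptor of the CD200 receptor family, stood at 7.52, 8.40 and 7.32 and was dim in NOD at 3.68, 3.80 and 3.59 (-4.06, adjusted p = 9.72e-07).

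Pdk1, the pyruvate dehydrogenase kinase that turns pyruvate away from the mitochondria, was lower at each of its 4 probe sets. At the brightest it was at 12.91, 13.02 and 12.75 in B6.H2g7 and 9.65, 10.37 and 10.50 in NOD, 6.57-fold lower (-2.72 ± 0.21, adjusted p = 7.11e-06). The other 3 gave -2.96, -1.88 and -3.94 (highest adjusted p = 2.76e-05). Other genes of glycolysis were mostly not called: of 22 measured, Pfkp was higher (0.61) and Pdk1 and Ldhb (-0.59, adjusted p = 9.82e-04) lower. The called share of that list was 13.6%, against 3.05% of all genes. Btbd11 was 7.39-fold lower and fell at all 3 of its probe sets (-2.89, -2.36 and -2.39). Ubash3a, which encodes the T cell receptor signalling inhibitor STS-2, was at 9.30, 9.31 and 9.04 in B6.H2g7 and 6.81, 6.39 and 6.49 in NOD, 6.3-fold lower (-2.65, adjusted p = 1.2e-06). Its other probe set, at 6.69 and 6.73, was not called (0.04, adjusted p = 0.936). Ubash3a was the only gene called of 30 measured in T cell receptor signalling (3.33%, against 3.05% of all genes). Zap70 (0.07), Ptpn22 (-0.04) and Plcg1 (0.28) were among those not called.

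The other genes among the 15 largest decreases included Gm11346 (9.93-fold lower, -3.31) and a probe set annotated to Mir1931 (15.9-fold lower, -4.00), which on an array of this kind reads a longer RNA and not the mature microRNA. A530021J07Rik (-3.88), Gm15708 (-3.51) and Spata5l1 (-2.92) were dim in NOD. Ly6e, a GPI-anchored surface protein just outside these 15, was 5.13-fold lower (-2.36, adjusted p = 3.58e-07), with -0.85 (adjusted p = 0.0504) at the other probe set.

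**Figure D2:**
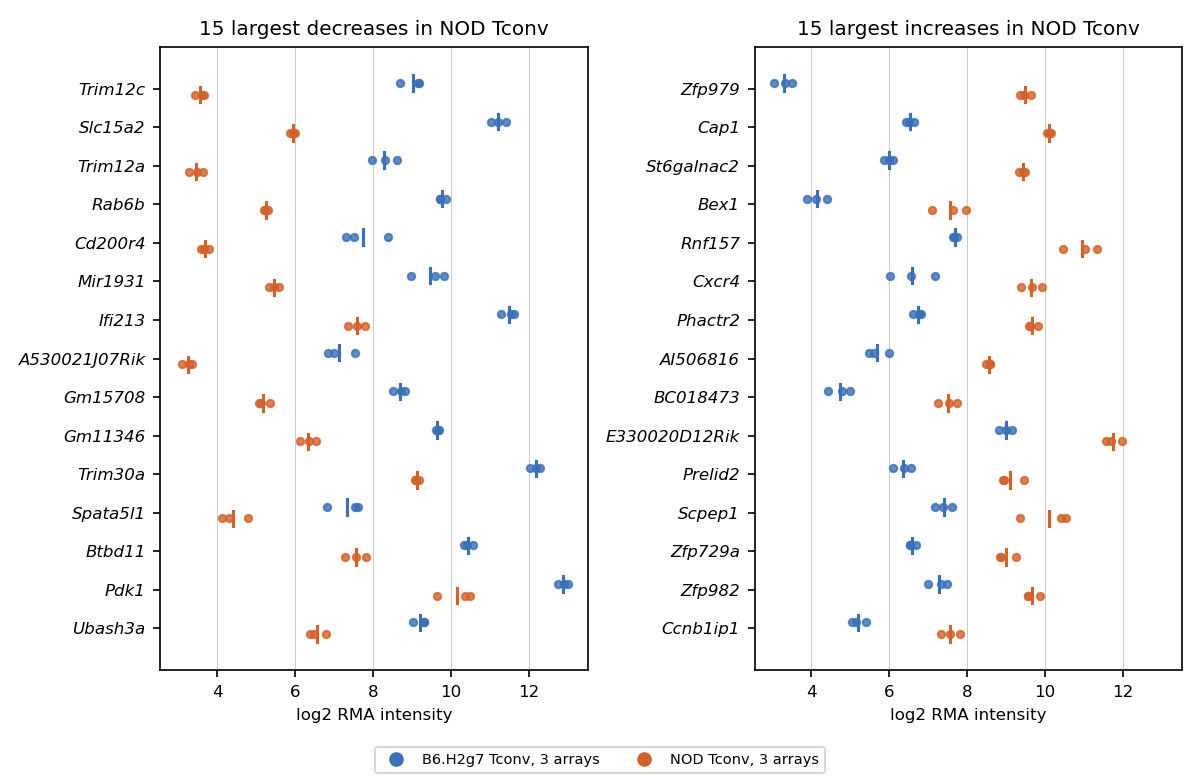
Log2 RMA intensity (x axis) of the 15 genes with the largest decrease (left) and the 15 with the largest increase (right) in NOD Tconv. Each point is 1 array, blue for B6.H2g7 and orange for NOD, bars are group means of 3 arrays, and in all 30 genes the strains do not overlap, which the choice of these genes required.

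The largest increase was in Zfp979, at a dim 3.04, 3.49 and 3.32 in B6.H2g7 and 9.65, 9.45 and 9.35 in NOD (6.20 ± 0.25, adjusted p = 2.47e-08). Its measured neighbour on chromosome 4, Zfp982, was 5.3-fold higher (2.41, adjusted p = 6.32e-06), and Zfp729a, another zinc finger gene, on chromosome 13, 5.34-fold higher (2.42, adjusted p = 1.5e-04). Genes of this kind encode zinc finger proteins, many of which bind and silence transposable elements. Zinc finger genes did not all go 1 way: Zfp874a, on chromosome 13, was lower (-2.49, adjusted p = 4.57e-07).

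Cxcr4, the receptor for the chemokine CXCL12 that holds lymphocytes in bone marrow and guides their traffic, was at 7.16, 6.03 and 6.56 in B6.H2g7 and 9.92, 9.66 and 9.37 in NOD. It was 8.36-fold higher (3.06 ± 0.28, adjusted p = 3.36e-05). Cap1, a regulator of actin turnover, was at 6.50, 6.43 and 6.63 against 10.10, 10.05 and 10.14, 12-fold higher (3.58, adjusted p = 1.54e-08) at the brighter of its probe sets, while the other was not called (0.57, adjusted p = 0.0958). St6galnac2, a sialyltransferase, was at 5.99, 6.09 and 5.86 against 9.44, 9.33 and 9.49, 10.9-fold higher (3.44), with -0.08 at the other. Rnf157, a RING finger ubiquitin ligase, was 9.59-fold higher (3.26) and higher at 3 of 5 probe sets (1.30 and 0.57 at the others called). Phactr2, a regulator of actin and protein phosphatase 1, was 7.69-fold higher (2.94), and Scpep1, a serine carboxypeptidase, 6.51-fold higher (2.70), at 7.39, 7.18 and 7.62 against 9.35, 10.40 and 10.54. The other probe set of Scpep1 was not called (0.23). Of the 2 others of Phactr2, 1 was called higher (0.58) and 1 was not called (-0.18). Bex1 (3.43), BC018473 (2.77) and Ccnb1ip1 (2.37) rose from dim B6.H2g7 levels.

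Genes of activation showed a few increases. Cd69, an early activation marker whose protein the sort used to remove cells, was at 10.77, 10.69 and 10.48 in B6.H2g7 and 12.26, 11.83 and 11.70 in NOD, 2.44-fold higher (1.28 ± 0.15, adjusted p = 2.89e-04). Of the 28 genes of the immediate early and activation list, 2 were higher (7.14%, against 1.6% of all genes). In the other direction 1 was lower (3.57%, against 1.45%). The higher ones were Cd69 and Tnfaip3, an inhibitor of NF-kB signalling (1.18, adjusted p = 0.0204). Tnfaip3 lost its call without B6.H2g7 replicate 2 or 3 or NOD replicate 1 or 2 (adjusted p up to 0.0941). Its other probe set was not called (0.04). The lower one was Fosl2, a subunit of the AP-1 transcription factor (-0.85, adjusted p = 0.00116), whose other probe set, about as bright, was not called (-0.11). The median of the list was 0.23, and Fos (0.32), Egr1 (0.54) and Nr4a1 (0.05) were not called. Pmaip1, which encodes the pro-apoptotic protein NOXA, was 4.16-fold higher, at 6.54, 6.26 and 5.77 against 8.59, 8.06 and 8.09 (2.06, adjusted p = 3e-04).

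Il21, a cytokine gene in the Idd3 region that helps B cells and effector T cells, was at 5.95, 6.51 and 6.32 in B6.H2g7 and 8.58, 8.10 and 7.42 in NOD. It was 3.42-fold higher (1.77 ± 0.23, adjusted p = 4.91e-04), while its dimmer probe set was not called (0.25, adjusted p = 0.438). Il2, next to it in that region, was not called (0.04, adjusted p = 0.958). Il21 was the only gene called of 29 cytokines and effectors (3.45%, against 3.05% of all genes). Of 40 measured candidate genes of Idd regions, a list written with results of these data known, 3 were higher and 3 lower (15%, against 3.05% of all genes). Besides Il21 these were Slamf6, a receptor of T and B cells (0.91, adjusted p = 0.00895), and Tnfrsf1b, a TNF receptor (0.63, adjusted p = 0.0318), both higher, and Afp, alpha-fetoprotein (-1.71, adjusted p = 5.03e-06), Capg, an actin-capping protein (-0.67, with -0.89 and an adjusted p of 0.115 at its other probe set), and Cd72, a B cell coreceptor (-0.82, adjusted p = 0.0167), all lower. Without 1 array, Slamf6 lost its call if B6.H2g7 replicate 1 or 2 was left out (adjusted p up to 0.0541), Tnfrsf1b without B6.H2g7 replicate 1 or 3 or NOD replicate 1 or 2 (up to 0.152), and Cd72 without B6.H2g7 replicate 1 or 3 or NOD replicate 2 or 3 (up to 0.0864).

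Transcription factors of T helper cells were called in 4 of 20 measured genes (20%, against 3.05% of all genes), 2 in each direction. Id2, which blocks E proteins and favours effector cells, was 2.59-fold higher (1.37, adjusted p = 1.47e-04) at its brightest probe set and lower at another (-0.76, adjusted p = 0.00717). Runx1, a regulator of T cell development, was 1.98-fold lower (-0.99, adjusted p = 3.81e-04) at its brightest probe set. Of its 5 other probe sets 1 was called lower (-0.88, adjusted p = 0.0366), and 3 had positive differences that were not called, among them one within 1 log2 unit of the brightest in B6.H2g7 (0.27, adjusted p = 0.52). Runx1 lost its call with the mean over all its probe sets (-0.17, adjusted p = 0.531). Hopx was 1.89-fold lower (-0.92, adjusted p = 4.55e-04), with -0.14 (adjusted p = 0.867) at its other probe set. Irf4, which T cells raise on receptor stimulation, was called higher (0.85, adjusted p = 0.0492) but lost that call in each fit without 1 of the 6 arrays (adjusted p from 0.0523 to 0.212). In the cell cycle list 4 of 36 genes were higher (11.1%, against 1.6% of all genes) and none lower: E2f2 (2.33-fold, 1.22), Ccnd3 (2.2-fold, 1.14), Gins1 (0.57) and Rrm1 (0.56). The other probe set of E2f2 gave -0.50 (adjusted p = 0.323), and another probe set of Ccnd3 was called lower (-1.85). With the mean over all probe sets of a gene, 3 of these genes lost their call by limma. They were E2f2 (0.36, adjusted p = 0.52), Ccnd3 (0.003, adjusted p = 0.997) and Rrm1 (0.01, adjusted p = 0.992). Of the 6 fits without 1 Tconv array, Rrm1 kept its call only in that without B6.H2g7 replicate 2 (adjusted p up to 0.146 in the others), and it lost the call in 9 of 17 alternatives in all. Gins1 lost its call in 2 of the 17 (adjusted p up to 0.0709). Mki67 (0.06) and Top2a (-0.10), which mark dividing cells, were not called. Cytokine receptors and JAK-STAT genes had 0 of 35 called by limma and T cell identity genes 0 of 12, against 3.05% of all genes. At an unadjusted p under 0.05 these lists had 6 and 1 members. The share of all genes at that threshold is not given here, so these counts cannot be called high or low.

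Genes typical of Treg cells were set apart as their own list, since the sort separates Treg by CD25 alone. Of 11 measured, 4 were higher and 1 lower (45.5%, against 3.05% of all genes), with a median of 0.29 and 10 of 11 positive; the list was written with results of these data known. Nrp1, a semaphorin and VEGF coreceptor, was at 8.22, 7.94 and 7.90 in B6.H2g7 and 8.81, 8.66 and 8.86 in NOD, 1.69-fold higher (0.75, adjusted p = 0.00101). Its 3 other probe sets were not called (0.32, 0.00 and 0.08). Tnfrsf18, which encodes the costimulatory receptor GITR, was 1.54-fold higher (0.62, adjusted p = 0.00868, but 0.0528 without B6.H2g7 replicate 2). Gpr83, a receptor gene high in Treg, was 1.65-fold higher (0.72, adjusted p = 0.0216), a call lost without any 1 of the 6 arrays (adjusted p from 0.0528 to 0.106).

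Ikzf2, the transcription factor Helios, was at 8.41, 8.91 and 8.31 in B6.H2g7 and 9.39, 9.26 and 9.27 in NOD (0.76, adjusted p = 0.0492); of the 6 fits without 1 Tconv array it kept its call only in that without B6.H2g7 replicate 2 (adjusted p up to 0.2 in the others), and it lost the call in 10 of 17 alternatives in all. Capg was the lower gene (-0.67, adjusted p = 6.02e-04). The defining genes were not called: Foxp3 differed by 0.23 (adjusted p = 0.796), Il2ra, which encodes CD25, by 0.06 (0.912) and Ctla4 by 0.36 (0.884), at 7.45, 7.70 and 7.01 in B6.H2g7 and 8.59, 7.30 and 7.37 in NOD. The summed intensity of the 11 genes was 2565 to 2798 in B6.H2g7 Tconv and 3537 to 4010 in NOD Tconv, ranges that do not overlap. In B6.H2g7 Treg it was 25781 to 30857. The sum includes Nrp1, Tnfrsf18, Gpr83 and Ikzf2, so its ranges partly restate their calls and do not show a shift of the whole list. The part of Treg cells among the sorted cells in these differences was not tested. In Treg the same genes had differences of 0.07 for Nrp1, -0.01 for Tnfrsf18, 0.34 for Gpr83 and 0.02 for Ikzf2, none called, but the test of their strain difference in Treg against that in Tconv was not passed either (adjusted p from 0.284 to 0.962).

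Markers of other cells were called in few cases. At the share over all genes, 3.05%, lists this short can hold 0 calls or 1. The presence of other cells was not tested by these counts. By limma 0 genes were called of 18 monocyte and macrophage, 10 neutrophil, 12 erythroid and platelet, 11 stromal and endothelial, and 23 killer lectin-like receptor and NK genes. At an unadjusted p under 0.05 these lists had 1, 0, 1, 0 and 3 genes, in that order, with no share of all genes at that threshold to set beside them. The lists of B cell (4.76%), dendritic cell (8.33%), plasma cell (12.5%) and CD8 T cell markers (12.5%) had 1 called gene each. In that order they were Cd72 lower, Cst3 (cystatin C, 2.15-fold higher, 1.11, adjusted p = 7.16e-04), Irf4 higher, and Crtam (-0.65, adjusted p = 0.0127) lower. Crtam lost its call without B6.H2g7 replicate 2 or NOD replicate 2 (adjusted p up to 0.065). The summed intensity of the 12 dendritic cell markers, Cst3 among them, was 1328 to 1488 in B6.H2g7 and 1494 to 1673 in NOD. Since Cst3 enters that sum, the sum is no separate measure of dendritic cells beside it. The part of dendritic cells in the Cst3 difference was not tested. The 21 B cell markers summed to 4665 to 5020 in B6.H2g7 and 4426 to 4876 in NOD, ranges that overlap.

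**Figure D3:**
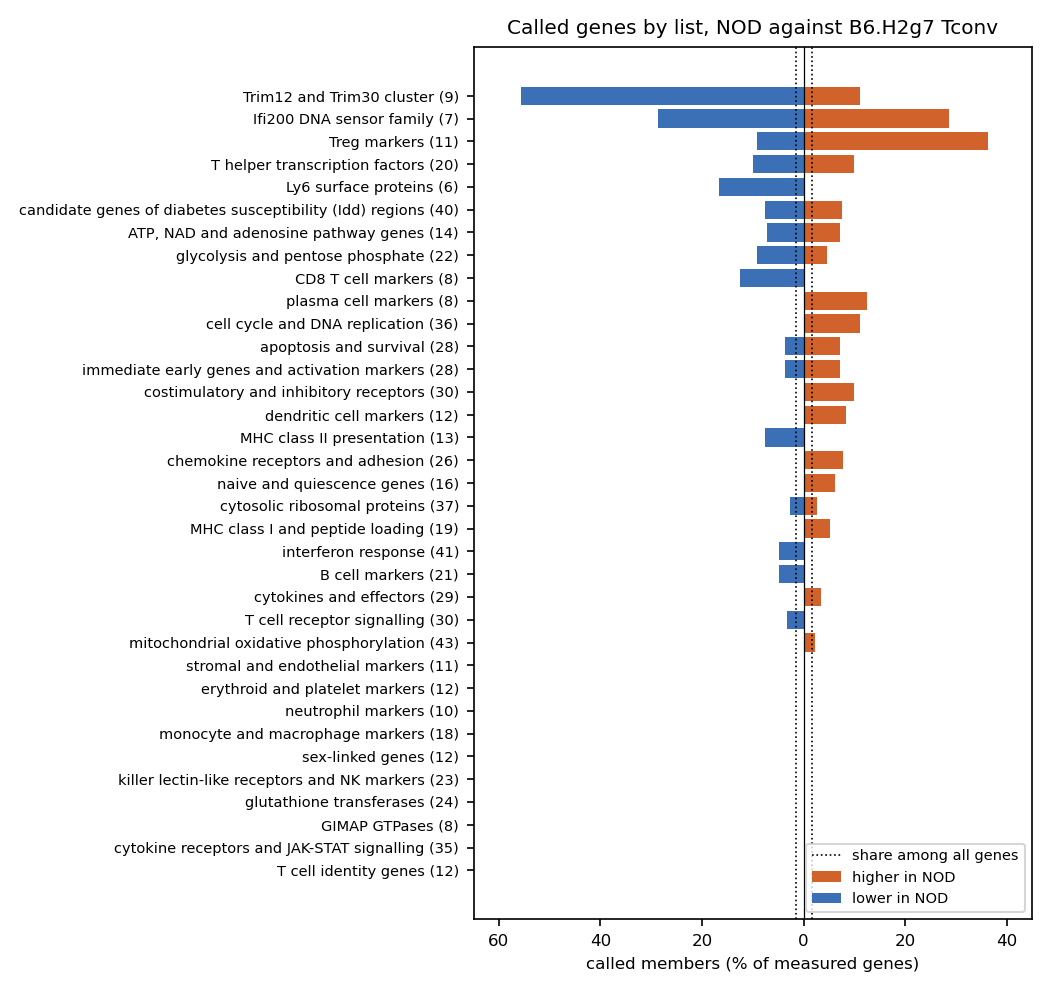
Share of measured genes called in each of 35 gene lists (x axis, percent, lower in NOD to the left and higher to the right; y axis, list and its number of measured genes). Dotted lines mark the share among all genes, 1.45% lower and 1.6% higher; the Trim cluster, the Ifi200 family and the Treg markers have the highest shares, and the lists were chosen with results of these data known.

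The MHC region holds the haplotype for which B6.H2g7 mice are congenic; how far the congenic segment reaches is not given in the sources used here. From H2-Ke6 to H2-M3 in the gene order, 2 of 121 measured genes were called (1.65%), against 23 of 718 on the rest of chromosome 17 (3.2%) and 529 of 17354 elsewhere (3.05%). They were H2-Ob, a chain of the class II peptide exchange modulator H2-O, at 9.82, 10.18 and 9.72 in B6.H2g7 and 8.76, 9.16 and 9.18 in NOD (1.83-fold lower, -0.87, adjusted p = 0.0025), and H2-Q2, a class I-like gene (1.61, adjusted p = 8.42e-04), whose B6.H2g7 level was dim. Class I genes share long stretches of sequence, so the probe set for H2-Q2 may read others of the family. Across the autosomes and chromosome X, called shares ran from 1.13% (chromosome X) to 4.54% (chromosome 13).

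Many of the strain differences were also called in Treg. The Treg differences come from the other 6 arrays, but both comparisons share 1 estimate of the spread and the choice of probe set. A fit on the 6 Tconv arrays alone called 499 genes, 462 of them among the 554. Of 18193 genes, 606 were called in Treg (3.33%). Of the 554 genes called in Tconv, 340 (61.4%) were called in Treg with the same sign and 0 with the other; these are 56.1% of the genes called in Treg. The sign agreed for 540 (97.5%), against 53.5% of all genes. Of the 193 genes at least 2-fold apart 168 were called in both (87%), and of the 56 at least 4-fold apart 54. Trim12c (-5.61), Slc15a2 (-5.63), Rab6b (-5.07), Ifi213 (-4.09), Zfp979 (6.05), Cap1 (3.28) and Cxcr4 (2.53) had like differences in Treg.

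Only 20 genes passed the test of the difference between Treg and Tconv in the strain difference (0.11%), and 10 of them were called in Tconv. Tmie, which encodes a membrane protein known from hair cells of the inner ear, was lower in NOD Tconv at its brightest probe set. There it was at 10.69, 10.48 and 10.21 in B6.H2g7 and 8.12, 8.29 and 8.23 in NOD (4.75-fold, -2.25). Its 2 other probe sets were not called in Tconv (-0.50 and 0.10). In Treg the brightest differed by -0.23 (adjusted p = 0.745), and the difference between populations was 2.02 (adjusted p = 0.00138). Drosha, the nuclease that starts microRNA processing, was 1.79-fold lower in NOD Tconv (-0.84) and at 0.12 in Treg (difference 0.96, adjusted p = 0.0263). Btbd11 was lower in Tconv by 2.89 and in Treg by 1.25 (difference 1.63, adjusted p = 0.0179). Hopx went further in Treg (-2.97) than in Tconv (-0.92; difference -2.05, adjusted p = 9.94e-05). Il21 differed by -0.02 in Treg (adjusted p = 0.996), and the test of its difference between populations was not passed (-1.79, adjusted p = 0.094).

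**Figure D4:**
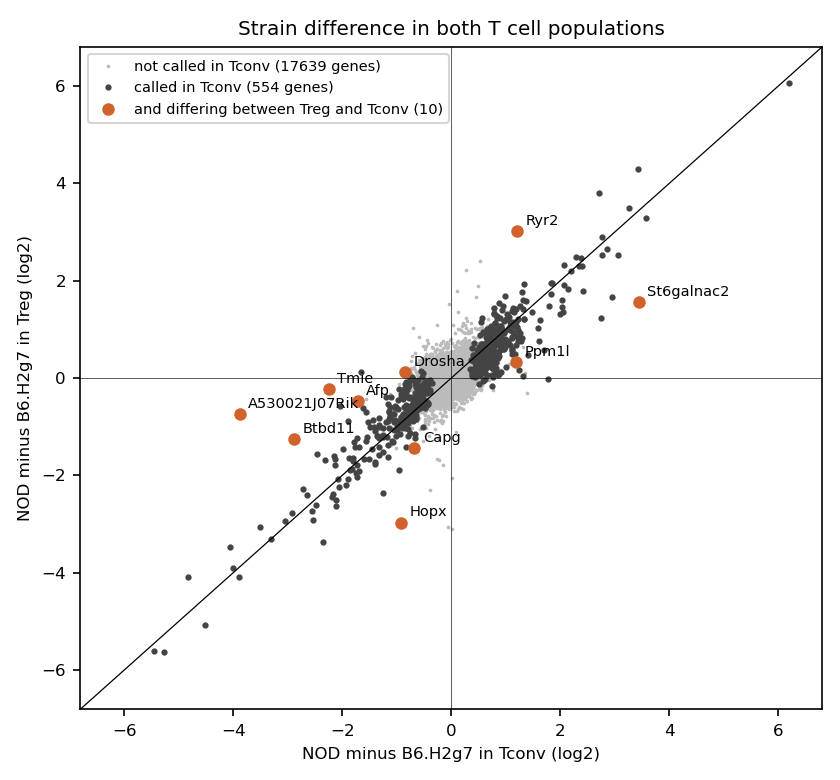
NOD minus B6.H2g7 on the log2 scale in Tconv (x axis) and Treg (y axis), 1 point per gene, with the line of equality. Dark points are the 554 genes called in Tconv, and orange points the 10 of them that also passed the test of the difference between Treg and Tconv; 540 of the 554 have the same sign in both.

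Other probe sets of a called gene were often not called, which bears on the calls. Of the 554 called genes, 337 had another probe set that names the gene alone. In 96 of these (28.5%) another probe set was called in the same direction, and in 17 one was called in the opposite direction. In 226 no other was called. Of all 45037 single probe sets 2.96% were called in either direction. That is not a like measure, since a gene can have several other probe sets. The share of genes with another probe set called in the same direction was 34% for genes lower in NOD (54 of 159). For genes higher in NOD it was 23.6% (42 of 178), and no test was made of this difference. For genes at least 2-fold apart it was 48.5% for lower (33 of 68) and 24.4% for higher (11 of 45). Where another probe set was about as bright (within 1 log2 unit), 43 of 123 called genes had one called in the same direction. In 31 of the 123 one had the opposite sign, called or not, and some of these lay near 0, such as -0.005 for Clstn1. Whether sequence variants of NOD under the probes take part was not tested, since neither probe nor NOD sequences were used here.

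In 27 genes, 19.6% of the 138 with at least 2 called probe sets, probe sets were called in both directions. Rbm39, a splicing factor, was the widest. Of its 12 probe sets, the brightest was not called (0.41, adjusted p = 0.789), 4 were higher in NOD (by 2.43 to 5.90) and 2 lower (-3.27 and -2.23). One of the higher ones was at 7.28, 7.14 and 6.38 in B6.H2g7 and 13.04, 12.79 and 12.67 in NOD, and a lower one at 10.53, 10.53 and 10.44 against 8.33, 6.84 and 6.53. Both patterns recurred in Treg (5.63 and -3.13). Ssbp2, a DNA-binding transcriptional cofactor, had a brightest probe set not called (-0.25), 1 at 9.99, 10.29 and 9.74 against a dim 4.55, 4.44 and 4.71 (-5.44, adjusted p = 5.19e-08) and 1 higher (1.91, adjusted p = 5.35e-04). Med1, a Mediator subunit, had 1 probe set higher by 3.49 (adjusted p = 2.96e-05) and another lower (adjusted p = 0.0196). Ccnd3, Id2, Slamf6 and Lancl1 were also called in both directions: Slamf6 gave 0.91 and -1.50 (adjusted p = 0.0032), and Ccnd3 1.14 and -1.85 (adjusted p = 2.26e-04). In Afp the called probe sets agreed, lower by 1.71, 3.65 and 5.31 at 3 of 5. The others, dim in both strains, were not called (0.03 and -0.71).

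**Figure D5:**
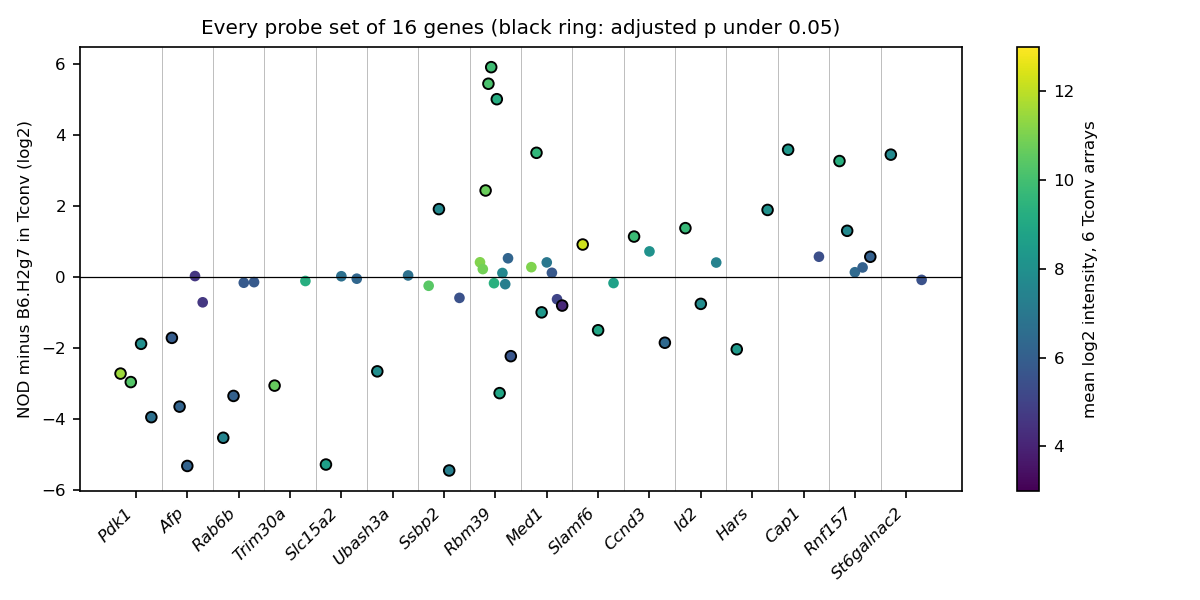
NOD minus B6.H2g7 in Tconv on the log2 scale (y axis) at every probe set of 16 genes (x axis), coloured by mean log2 intensity over the 6 Tconv arrays, with a black ring where the adjusted p was under 0.05. The 4 probe sets of Pdk1 agree, whereas Rbm39 runs from -3.27 to 5.90 and Ssbp2 from -5.44 to 1.91.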

How the data were processed

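RNA of sorted spleen T cells was extracted with Trizol, amplified in a pair of rounds, labelled with biotin and hybridised to Affymetrix arrays, per the labels' protocols. The deposited table gives, for every array, a linear intensity of each probe set, which the authors normalized with RMA, per the submitters' processing notes. Which RMA software they used is not given in the sources used here. Its lowest intensity was 5.78 and the highest 27207, and no detection calls were used. Here log2 of the deposited values was taken without further normalization. Of 45101 probe sets, 64 controls were left out and 45037 tested; 34945 name 1 gene in the platform annotation, 932 several and 9160 none. Entrez IDs of 34741 matched RefSeq (GRCm38.p6), used for gene order and start windows. The brightest probe set naming a gene alone over all 12 arrays stood for it, giving 18193 genes.

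Tests used limma 3.58.1 in R 4.3.3, with a mean per group over all 12 arrays and 1 shared spread per probe set, and Benjamini-Hochberg adjustment over all tested probe sets. Differences are NOD minus B6.H2g7, with the standard error of the fit, and a call is an adjusted p under 0.05. No permutation test was run on single genes, since the smallest exact p for 3 arrays against 3 is 0.1. The fit was tested on simulated data. Replicate numbers 1 to 3 occur in every group. Deviations of Tconv arrays with the same number correlated with r = 0.44, -0.04 and 0.20, and the numbers were not taken as pairs. Treg arrays did not enter these correlations. A fit with a replicate block called 903 genes against 554, and whether the number carries an effect was not tested.

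The comparison, its members and the 35 gene lists were chosen with earlier results of these data known. Named genes are the 15 largest increases and 15 largest decreases among called genes with non-overlapping arrays, a fixed set of T cell and sort genes, called list members (up to 6 per list), called genes of the H2 region, genes with probe sets called in both directions, and genes that differ between Treg and Tconv; some are left out for brevity, and uncalled list members and neighbouring genes were chosen after their values were seen.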

Additional observations from a re-analysis of the deposited data

Results flagged for a closer look

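The strain difference differed between Treg and Tconv, by the interaction test of limma at an adjusted p under 0.05, in 10 genes that were also called in Tconv. Values are the strain difference in Treg minus that in Tconv on the log2 scale. It was smaller in Treg for A530021J07Rik (3.15, adjusted p = 8.38e-05), Tmie (2.02), Btbd11 (1.63), Afp (1.24), and Drosha (0.96), which were lower in NOD Tconv, and for St6galnac2 (-1.89) and Ppm1l (-0.87), which were higher there. It was larger in Treg for Ryr2 (1.80), Hopx (-2.05) and Capg (-0.77). A530021J07Rik was dim in Treg of both strains, which limits how far a difference can show there, and Afp was dim in NOD of both populations. Ryr2, a calcium release channel, was at 5.49 to 5.82 in B6.H2g7 Tconv and 6.76 to 6.87 in NOD Tconv. Its strain difference was 1.21 in Tconv and 3.01 in Treg, and its other probe set was not called in Tconv (-0.06). The adjusted p of Capg was 0.0467, and its other probe set, about as bright, had strain differences of -0.89 in Tconv and 0.12 in Treg, so that the larger change in Treg was not seen there.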

How the results depend on the processing

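Counts of called genes moved with how the spread was estimated, and the cause was not tested. Against 554 called genes and 1333 probe sets, a replicate block gave 903 and 2124, array weights 903 and 2181, and an actin 3' to 5' covariate 869 and 2077; 554, 553 and 554 of the genes called were kept. Requiring at least 2-fold as well left 193 genes and 534 probe sets, and a ratio of averaged linear intensities of at least 2-fold 206 and 588. Leaving out 1 of the 6 Tconv arrays gave 394 to 435 genes and 945 to 1056 probe sets. In Treg, array weights gave 960 and the actin covariate 941 genes against 606. The test of Treg against Tconv called 43 genes with the replicate block, 37 with array weights and 37 with the actin covariate, against 20. Genes with probe sets in both directions numbered 54 with the block, 62 with weights, 56 with the covariate and 16 without the 4 arrays numbered replicate 1, against 27, and 15 to 22 without 1 array (15 without B6.H2g7 replicate 1 and 16 without replicate 2). In the H2 region the block called 5 genes and the covariate 4, against 2. The correlation of deviations, by which the replicate numbers were not taken as pairs, used Tconv arrays alone. The actin fall-off was lowest at replicate 1 in NOD Tconv (2.97), B6.H2g7 Treg (2.66) and NOD Treg (3.29). In B6.H2g7 Tconv it was lowest at replicate 2 (3.67). Whether the replicate number carries an effect was not tested.

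With the mean over all probe sets of a gene, 8 of the 99 named genes that were called changed sign: Ablim1 (-0.50), Arsk (-0.41), Elmo1 (0.21), Galnt6 (0.085), Map3k12 (0.22), Plekha2 (-0.038), Slamf6 (-0.25) and Wars2 (-0.089). Of these 99 genes, 58 kept the call under every alternative run, and 41 lost it under at least 1, 11 of them only with that mean. The median over all probe sets moved by less than 0.1 under the scalings tried.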

Other observations

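Some called genes lay next to each other among measured genes in the RefSeq order: of the 554 (3.05% of all genes), 83 (15%) were in 38 runs, of which 33 held 2 genes, 4 held 3 and 1 held 5. In 22 of the 38 runs every member differed in the same direction. No chance level was computed for the runs or for their directions. Clec2d, a ligand of NK receptors, was called higher in NOD (1.23, adjusted p = 0.0032) beside 2310001H17Rik (0.89) and Cd69. St6galnac2 was flanked by Snhg16 (1.09) and BC018473 (2.77), all higher. Dbf4 (-1.14), an activator of the replication kinase Cdc7, Slc25a40 (-0.72) and Rundc3b (-2.32), all lower, were neighbours on chromosome 5.

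The Toll-like receptor genes Tlr1 (0.91, adjusted p = 2.53e-04) and Tlr6 (1.22, adjusted p = 0.00132) were neighbours and both higher in NOD Tconv; in Treg, Tlr1 differed by 0.12 (adjusted p = 0.881) and Tlr6 by 0.87 (adjusted p = 0.0145). The T cell receptor alpha variable genes Trav12n-2 (-1.69, adjusted p = 0.00718) and Trav6-3 (-1.40, adjusted p = 1.11e-04) were lower. Variable genes of this family are close copies, so a probe set may read several. Acadl, which oxidises long-chain fatty acids, was lower (-2.47, adjusted p = 1.08e-06), while its other probe set was not called (-0.14). Ms4a4d (-1.52) and its neighbour Ms4a6d (-2.17) were lower, and the 2 other probe sets of Ms4a6d were not called (-0.51 and -0.05). These genes were chosen after their values were seen.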
